A study of Xenopus laevis with 14 samples.

Results

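The Xenopus laevis insulin genes ins.L and ins.S were followed across anterior endoderm explants with and without added Ptf1a. They are the 2 copies of the insulin gene in this species, on the L and S subgenomes. The members were chosen by symbol: every probe set whose platform gene symbol is ins once .L or .S is dropped. This gave 2 of 24218 probe sets, Xl2.23623.1.S1_at for ins.L and Xl2.817.1.S1_at for ins.S, and no probe set that joined an ins symbol with another gene. Both were measured on all 14 arrays, so no member was lost to a filter.

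The Ptf1a groups came from embryos that received 800 pg of Ptf1a mRNA with 400 pg of GFP mRNA. The GFP groups received 400 pg of GFP mRNA alone. Injection was into the dorsal vegetal blastomeres at the 8-cell stage, and anterior endoderm was dissected 40 hours later at stage NF32 or 48 hours later at NF36. There were 3 arrays per group at NF32 and 4 per group at NF36, each from about 15 pooled explants. Numbered Ptf1a and GFP samples of a stage shared a batch of embryos. The GFP embryos thus lacked the injected Ptf1a mRNA and also carried less injected mRNA in all, and a pool does not show how many cells of each explant kept the injected mRNA. No strain or age beyond the stage is given in the sources used here.

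Insulin is made by beta cells as preproinsulin, which is folded with disulfide bonds in the endoplasmic reticulum and cut by proprotein convertases and carboxypeptidase E into the stored hormone. It acts through the insulin receptor, a tyrosine kinase that signals by insulin receptor substrates, PI3 kinase and Akt. In liver this signal lowers the expression of glucose-making enzymes and of igfbp1. In Xenopus embryos insulin is the first pancreatic hormone to be expressed, in cells of the dorsal pancreatic bud. Ptf1a is a transcription factor needed in the progenitors of the pancreas and for its exocrine cells.

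Values are linear probe set intensities on a scale of each stage's own, so levels are not compared between stages, nor between the 2 probe sets. The array medians were 49.2 to 50.6 at NF32 and 33.6 to 35.3 at NF36. The ptf1a probe set read 209.5, 386.0 and 347.1 in the Ptf1a explants of NF32, against 18.3, 14.9 and 7.7 in the GFP explants, and each Ptf1a array of NF36 lay above each GFP array as well. Whether that probe set reads the injected mRNA was not tested. Of the endoderm identity markers, such as foxa1, gata6 and hnf4a, 15 genes were measured at NF32 and 16 at NF36. None of these was listed at 0 on all arrays of a stage, and 0 at NF32 and 1 at NF36 had a mean below 16.

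At NF36 both insulin genes were lower in the Ptf1a explants. The ins.L probe set read 15.5, 18.4, 21.1 and 15.4 in the Ptf1a explants, against 67.2, 70.0, 77.2 and 75.0 in the GFP explants. All 4 Ptf1a arrays lay far below all 4 GFP arrays, with no overlap. The Ptf1a explants averaged 17.6 ± 2.72 and the GFP explants 72.4 ± 4.57 (SD, n = 4 each), so the GFP mean was 4.11 times the Ptf1a mean. On the log2(intensity + 16) scale, which draws dim values toward each other, ins.L changed by -1.40 ± 0.07 (SE; 95% interval -1.57 to -1.23; adjusted p = 6.77e-04). Throughout, changes are Ptf1a minus GFP, and adjusted p-values are those of limma with Benjamini-Hochberg adjustment over all probe sets of the stage. A gene passed where the adjusted p was under 0.05. Unless stated otherwise, the fit did not hold the shared batch of embryos as a block. It thus ignored the pairing of samples, and more probe sets passed with the block. At NF36 these were 2977 higher and 2554 lower, against 848 and 446 without it. At NF36, 5.48% of the 23614 probe sets passed in either direction, and 1.89% of the 23614 passed lower.

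The ins.S probe set read 23.5, 39.4, 36.1 and 22.1 in the Ptf1a explants of NF36, against 82.2, 98.3, 108.2 and 96.4 in the GFP explants. Again no Ptf1a array reached the lowest GFP array, and replicates 1 and 4 were the lowest Ptf1a arrays for both insulin genes. The Ptf1a explants averaged 30.3 ± 8.75 and the GFP explants 96.3 ± 10.7 (SD, n = 4 each), a GFP mean 3.18 times the Ptf1a mean. The change of ins.S was -1.29 ± 0.14 (SE; 95% interval -1.61 to -0.98; adjusted p = 0.00434). For both insulin genes every Ptf1a array lay below every GFP array, as did 5.49% of all probe sets at this stage.

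ins.L had the smallest p of all 23614 probe sets at NF36, with rank 1, and ins.S had rank 44. By the size of the fall, 10 of the 446 probe sets that passed lower fell further than ins.L and 17 fell further than ins.S. The place of ins.L at the head of the ranking by p went with an even GFP level: the SD of its GFP arrays was 6.31% of their mean, against 15.4% in the Ptf1a explants. For ins.S these values were 28.9% in the Ptf1a explants and 11.1% in the GFP explants. In bulk explants, fewer insulin-expressing cells and less insulin RNA per cell cannot be told apart.

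The fall at NF36 was present in each batch of embryos. Within pairs of the same replicate number, ins.L changed by -1.40, -1.32, -1.33 and -1.54 on the log2 scale. The 4 pairs for ins.S gave -1.31, -1.04, -1.25 and -1.56. Pair 4 had the largest change of both genes and pair 2 the smallest. Refitting with each of the 8 arrays removed in turn kept the call of both genes, and the change of ins.L ran from -1.45 to -1.37 and that of ins.S from -1.39 to -1.21 over these refits.

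**Figure D1:**
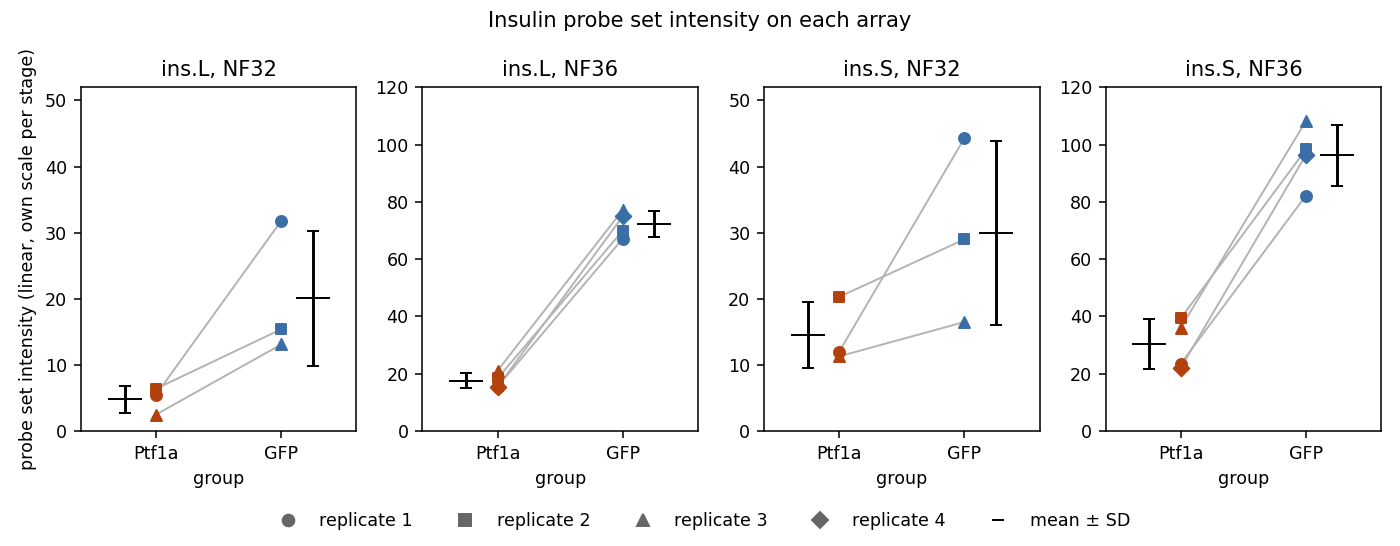
Linear intensity of ins.L and ins.S on each array, by stage, with Ptf1a explants left of GFP explants, grey lines joining samples of 1 batch of embryos, and bars giving mean ± SD. At NF36 the Ptf1a arrays lie between 15.4 and 39.4 and the GFP arrays between 67.2 and 108.2, whereas at NF32 the ins.S groups overlap; the y axes differ between stages.

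At NF32 both insulin genes were dim and neither passed in the fit without the block. The ins.L probe set read 5.5, 6.4 and 2.5 in the Ptf1a explants, against 31.8, 15.4 and 13.1 in the GFP explants. The groups did not overlap, as for 11.0% of all probe sets at this stage in that direction. The Ptf1a explants averaged 4.80 ± 2.04 and the GFP explants 20.1 ± 10.2 (SD, n = 3 each), and the change was -0.76 ± 0.19 (SE; 95% interval -1.22 to -0.31; adjusted p = 0.0951). At NF32, 3.16% of the 22855 probe sets passed in either direction, and 1.20% of the 22855 passed lower. With the batch of embryos as a block, ins.L passed with the same change (limma adjusted p = 0.0241).

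ins.S read 12.0, 20.3 and 11.3 in the Ptf1a explants of NF32, against 44.3, 29.0 and 16.5 in the GFP explants. Here the groups overlapped, since Ptf1a replicate 2 lay above GFP replicate 3. The Ptf1a explants averaged 14.5 ± 5.01 and the GFP explants 29.9 ± 13.9 (SD, n = 3 each), with a change of -0.56 ± 0.23 (SE; 95% interval -1.10 to -0.02; adjusted p = 0.294). With the block its adjusted p was 0.111.

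The NF32 GFP arrays were uneven for both insulin genes, and replicate 1 was the highest for each. Their SD was 50.7% of the mean for ins.L and 46.5% for ins.S. Within pairs, ins.L changed by -1.15, -0.49 and -0.65 and ins.S by -1.11, -0.31 and -0.25, so every pair had less insulin RNA with Ptf1a and the pair of replicate 1 differed most. Without GFP replicate 1 the change of ins.L was smaller and that of ins.S likewise, at the near end of ranges from -0.90 to -0.54 and from -0.78 to -0.34 over the 6 refits with 1 array removed. Neither gene passed in any of those 6 refits. In the same arrays, 14 of 20 measured markers of blood cells passed lower while nfe2.S alone passed higher, with summed levels of 793 to 1573 in the Ptf1a explants and 5073 to 8430 in the GFP explants. The lower count was 6 without GFP replicate 1 or 2, 8 without Ptf1a replicate 1 and 10 or 11 without any other array, and nfe2.S passed in no refit. The 22 liver markers summed to 8947 to 10506 in the Ptf1a explants and 9831 to 15863 in the GFP explants, with a median change of -0.45, 1 passing lower and 10 lower at an unadjusted p under 0.05. Of these liver markers 7 passed lower with the block and 8 without GFP replicate 3, 1 without Ptf1a replicate 2 and 0 without any other array. Of 21 heart and muscle markers 7 passed lower, among them the heart genes myh6.S (-2.14) and tnni3.S (-1.97), and 6 or 7 did in the refits. The summed level of that list ran the other way, at 4717 to 7887 in the Ptf1a explants and 3105 to 4987 in the GFP explants. In that list 0 passed higher, but up to 3 did in the refits. At an unadjusted p under 0.05, 8 of its markers were lower and 7 higher. Of 15 endoderm identity markers 2 passed lower and 0 higher, and 5 were lower at an unadjusted p under 0.05. With the block 6 passed lower, and 0 or 1 did with 1 array removed. Their summed levels were 4057 to 4382 in the Ptf1a explants and 4111 to 4549 in the GFP explants. The part of all these cells in the insulin values of NF32 was not tested. Over all probe sets of NF32, 1.20% passed lower and 1.96% higher without the block, and 958 of 22855 lower and 1149 higher with it.

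**Figure D2:**
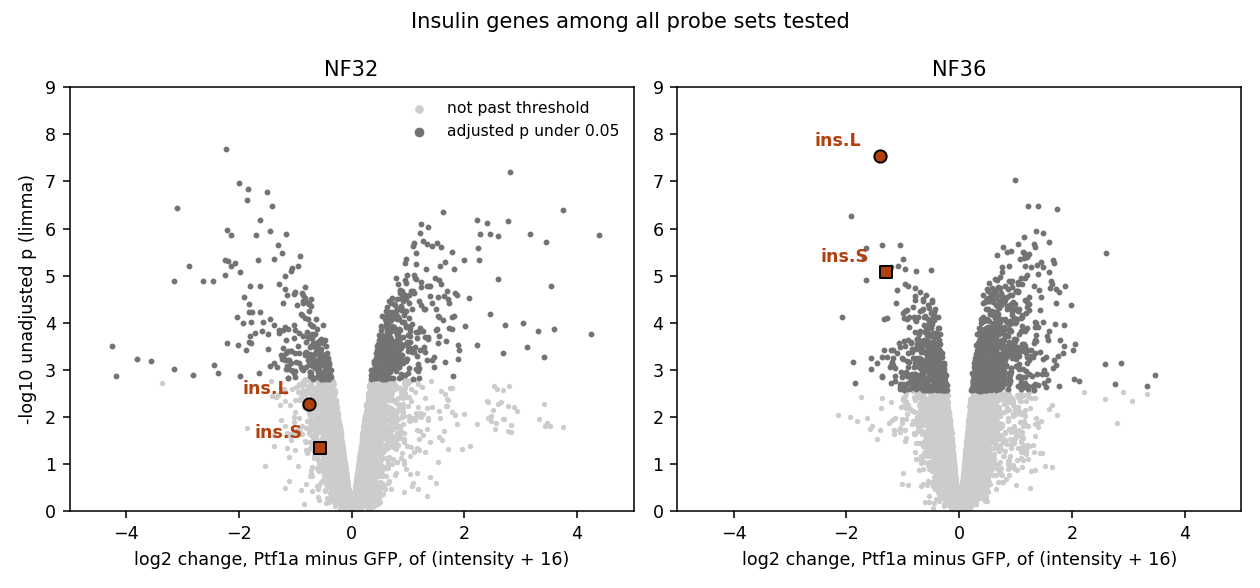
Log2 change (x axis) against -log10 of the unadjusted limma p (y axis) for every probe set at NF32 and NF36, with the insulin genes in orange. ins.L is the highest point at NF36, at a change of -1.40, and both insulin genes lie among the probe sets that did not pass at NF32. The calls are those of the fit without the block.

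Whether Ptf1a changed insulin RNA more at NF36 than at NF32 was asked by a contrast in 1 fit of the 22251 probe sets measured at both stages, of which 0.777% passed (0.342% with a lower and 0.436% with a higher effect at NF36). The change of ins.L was -0.63 ± 0.20 further down at NF36 than at NF32 on the log2 scale (SE; 95% interval -1.07 to -0.20; limma adjusted p = 0.227). For ins.S the difference was -0.74 ± 0.27 (SE; 95% interval -1.33 to -0.14; limma adjusted p = 0.369). Neither passed without the block, and the intervals, which are not adjusted for the number of probe sets, range from a slight to a large difference. The ins.L difference passed with the block (-0.63, adjusted p = 0.0432) and without GFP replicate 1 of NF32 (-0.85, adjusted p = 0.0158).

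The stage difference of ins.L also rests on the offset of 16. With an offset of 1 the changes were -1.83 at NF32 and -1.99 at NF36, and their difference was -0.16. For ins.S the difference with an offset of 1 was -0.74. In the NF32 Ptf1a explants ins.L lay above only 0.893%, 0.792% and 0.245% of the probe sets of its array, so a level above background was not shown there and no fold is given for NF32.

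The 2 copies were then compared by the difference between their log2 values within each array, a measure of unequal change and not of level. At NF36 this difference averaged -0.45 ± 0.18 in the Ptf1a explants and -0.34 ± 0.09 in the GFP explants (SD, n = 4 each), so ins.L changed by 0.10 more than ins.S downward (-0.10, 2-sided exact permutation p = 0.4 over 70 arrangements, of which the smallest possible p is 0.0286). At NF32 it averaged -0.55 ± 0.16 in the Ptf1a explants and -0.34 ± 0.18 in the GFP explants (SD, n = 3 each), a difference of -0.21 (exact permutation p = 0.2, with 0.1 the smallest that 3 against 3 allows). With an offset of 1, ins.L changed by -0.31 more than ins.S at NF36 (exact permutation p = 0.0286), and with an offset of 64 the sign turned to 0.03, so an unequal change of the copies was not resolved. Whether each probe set reads only its own copy was not tested.

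The nearest profile to each insulin gene at NF36 was that of the other. Likeness was the root-mean-square distance, over the 8 arrays, between log2(intensity + 16) values taken relative to the GFP mean. Of 12580 other probe sets with 1 symbol, ins.S was the nearest to ins.L and ins.L the nearest to ins.S, at a distance of 0.14. Next to ins.L came dhrs11.S, a gene of the short-chain dehydrogenase family, at 0.17. It read 48.4, 36.9, 52.4 and 34.3 in the Ptf1a explants, against 133.5, 158.9, 134.0 and 116.1 in the GFP explants (change -1.37 ± 0.12, SE, adjusted p = 0.00351). As for the insulin genes, its groups stood wide apart.

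Further near profiles were those of cldn18.L, tff3.2.S, MGC115163.L and cbx6.L, at distances of 0.24 to 0.27. cldn18.L encodes a claudin, a tight junction protein that in mammals is abundant in stomach and lung, and read 0.3, 0.6, 5.1 and 0.6 in the Ptf1a explants, against 16.5, 44.1, 35.9 and 21.9 in the GFP explants. tff3.2.S is a trefoil factor gene, a family secreted with mucus by gut epithelium in mammals, and averaged 2.73 ± 1.85 in the Ptf1a explants and 22.8 ± 3.70 in the GFP explants (SD, n = 4 each). cbx6.L, of the chromobox family of Polycomb proteins, averaged 20.1 ± 4.75 in the Ptf1a explants and 61.8 ± 11.9 in the GFP explants (SD, n = 4 each). For all 5 of these genes no Ptf1a array reached the lowest GFP array. They were picked for this pattern, so their changes are a description. Likeness was taken with the offset of 16 alone, which draws dim values toward each other. Over the alternative settings the largest falls were -3.75 for cldn18.L and -2.80 for tff3.2.S, against -1.99 for ins.L and -1.67 for ins.S. For dhrs11.S, MGC115163.L and cbx6.L they were -1.65, -1.69 and -1.59. No distance was taken at another offset, so the nearness of all 5 genes to the insulin genes is shown for the offset of 16 only. The same limit applies to the nearness of ins.L and ins.S to each other.

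**Figure D3:**
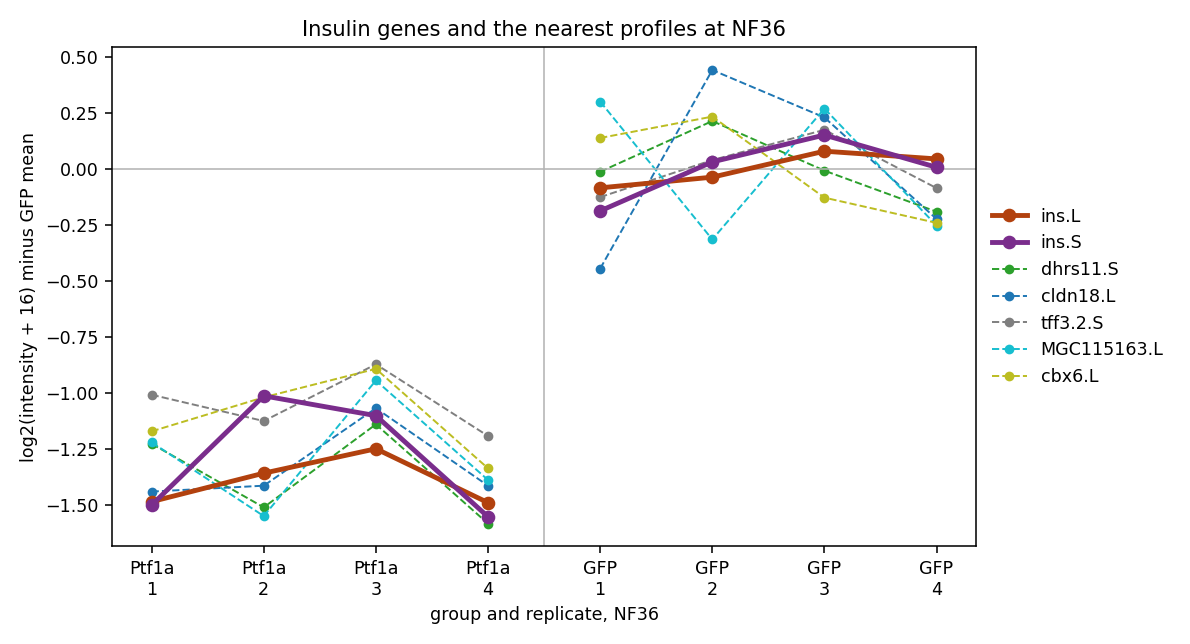
Log2(intensity + 16) relative to the GFP mean on each NF36 array, Ptf1a arrays left and GFP arrays right, for ins.L and ins.S (thick lines) and the nearest profiles (dashed). The insulin genes are 0.14 apart in root-mean-square distance, with the widest gap on Ptf1a replicate 2, and their GFP arrays scatter less than those of cldn18.L and MGC115163.L.

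Most of the other hormone genes measured were too dim for a fall to be seen. Of the 17 symbols listed as islet and gut hormones, 5 genes were measured (both copies of sst.1, both of tac1, and penk.L), and none passed at either stage in limma. At both stages 4 of the 5 had a mean below 16, and tac1.S at NF32 and tac1.L at NF36 read at most 1.8 and 0.5 in the GFP explants, so the list cannot show whether other hormones shared the fall of insulin. At an unadjusted p under 0.05, 2 were higher at NF32 and 1 at NF36, and none was lower at either stage. Somatostatin, made by delta cells of the islet, by stomach cells and by neurons, is encoded by sst.1.L, which read 41.9, 87.6, 36.2 and 51.9 in the Ptf1a explants of NF36, against 19.5, 33.3, 19.4 and 8.6 in the GFP explants. This was the opposite side from insulin, but the change of 0.95 ± 0.25 did not pass (SE, adjusted p = 0.0706). With the batch of embryos as a block, sst.1.L passed (adjusted p = 0.00621). The median change of these hormone genes was 0.45 at NF32 and 0.16 at NF36, where the median over all probe sets was -0.01 and 0.00. tac1.S, a tachykinin precursor gene, and penk.L, the proenkephalin gene, both used by neurons, had the smallest p at NF32 (0.41 and 0.45, with adjusted p of 0.0160 and 0.0418 under the block), and tac1.L was second to sst.1.L at NF36 (0.18). gcg, ppy and ghrl were not analysed here.

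Transcription factors listed here as regulators of the insulin gene or of pancreatic cells went both ways at NF36. Of 11 measured genes of this list, 2 passed higher and 2 lower at NF36, and 1 higher and none lower at NF32, with median changes of 0.09 at NF36 and 0.38 at NF32. Over all probe sets, 3.59% passed higher and 1.89% lower at NF36, and 1.96% and 1.20% at NF32. Under the block the NF32 counts were 4 higher and 1 lower, where 1149 of all 22855 probe sets passed higher and 958 lower. neurod1 encodes a bHLH factor that binds the insulin gene promoter in mammals. neurod1.S read 21.3, 30.9, 14.0 and 31.3 in the Ptf1a explants of NF36, against 2.8, 8.0, 1.2 and 5.3 in the GFP explants, a rise of 0.98 ± 0.16 (SE, adjusted p = 0.0164). The GFP arrays of neurod1.S were near the bottom of the scale. neurod1.L rose by 0.66 ± 0.13. With 1 array removed, neurod1.S kept its call in 6 of 8 refits and neurod1.L in 2. Of 25 neuronal markers in the same arrays, 18 passed higher at NF32 and 4 at NF36. The part of neurons in the rises of this list, at either stage, was not tested. pdx1, the master regulator of pancreas and insulin, was not analysed here.

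nkx6-2.L, a homeobox gene whose product is found in early pancreatic cells in mammals, fell at NF36 with the insulin genes. It read 71.1, 77.5, 72.1 and 55.3 in the Ptf1a explants, against 112.6, 138.3, 133.3 and 133.6 in the GFP explants (change -0.78 ± 0.10, SE, adjusted p = 0.00671, passing in all 8 refits). hnf4a.S, an endoderm factor gene, also fell, by 0.42 on the log2 scale (adjusted p = 0.045, held in 1 of 8 refits). At NF32 the side was the other one for nkx6-2.L: the Ptf1a explants read 37.6, 29.5 and 22.8, against 14.6, 12.6 and 7.4 in the GFP explants (0.74 ± 0.15, SE, adjusted p = 0.0521, or 0.00384 with the block). mnx1.L, a factor needed for the dorsal pancreatic bud and beta cells in mice, rose at NF32 (0.62 ± 0.10, adjusted p = 0.0284, held in 1 of 6 refits).

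Some genes that process prohormones or release granules rose at NF32. Of 21 measured genes 6 passed, all higher, against 1.96% of all probe sets that passed higher, and their median change was 0.31. The vesicle fusion gene snap25.L (1.78 ± 0.13, adjusted p = 0.00186), the vesicle protein gene syt4.L (1.63 ± 0.17, adjusted p = 0.00555) and cpe.L (0.96 ± 0.10, adjusted p = 0.00605) passed in all 6 refits with 1 array removed. The vesicle GTPase gene rab3a.L (0.79 ± 0.13, adjusted p = 0.027) passed in 2 of them. The others that passed were cpe.S and pcsk2.L, and neurons use all of these genes too. The count was 3 to 5 in the refits, with 3 without any one of the GFP replicates or without Ptf1a replicate 2 and 4 without Ptf1a replicate 3. It was 10 higher and 1 lower with the block, where 1149 of all 22855 probe sets passed higher and 958 lower. Of 25 neuronal markers, which include snap25.L and syt4.L, 18 passed higher at NF32, with summed levels of 2449 to 2767 in the Ptf1a explants and 544.5 to 673.1 in the GFP explants. The neuronal count was 10 without GFP replicate 2, 12 without GFP replicate 1 or Ptf1a replicate 3, and 13 to 17 without any other array, and the part of these cells in the rises was not tested.

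At NF36 the same list had 1 of 22 genes past the threshold, where 5.48% of all probe sets passed. This was tm4sf4.L, a membrane protein gene of islet and gut cells, with 12.1, 16.5, 24.0 and 17.3 in the Ptf1a explants, against 59.1, 63.4, 33.6 and 34.7 in the GFP explants. It fell by 0.91 on the log2 scale (SE 0.18, adjusted p = 0.0282, held in 3 of 8 refits). cpe.S, whose product trims basic residues from proinsulin, had the next smallest p (0.52 ± 0.13, adjusted p = 0.0615, or 0.00974 with the block), and the list's median change was 0.02. The block gave 4 higher and 2 lower genes in this list, where 2977 of all 23614 probe sets were higher and 2554 lower with it.

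Of 22 measured genes of insulin reception and signalling 2 passed at NF32, where 1.96% of all probe sets passed higher, and of 21 at NF36 again 2, where 3.59% did. All of these were higher, with median changes of -0.03 at NF32 and 0.07 at NF36. With the block, 4 were higher and 1 lower at NF32, and 6 were higher and 1 lower at NF36. All probe sets then gave 1149 higher and 958 lower of 22855 at NF32, and 2977 higher and 2554 lower of 23614 at NF36. With 1 array removed, the NF32 count was 1 without GFP replicates 2 or 3 or Ptf1a replicates 2 or 3 and 2 otherwise. The NF36 count was 3 without Ptf1a replicate 3, 1 without Ptf1a replicate 1 and 0 without any other array. irs4.L, an insulin receptor substrate gene, read 243.2, 123.9, 122.0 and 165.2 in the Ptf1a explants of NF36, against 102.3, 66.9, 72.6 and 78.2 in the GFP explants (0.87 ± 0.21, SE, adjusted p = 0.0486, held in 2 of 8 refits). socs3.S, an inhibitor of cytokine and insulin signalling, rose at both stages, by 1.37 ± 0.13 at NF32 (adjusted p = 0.0044) and 1.11 ± 0.26 at NF36 (adjusted p = 0.0444, held in 1 of 8 refits). socs3.L rose at NF32 (1.20 ± 0.22, adjusted p = 0.0347, held in 2 of 6 refits). irs1.L, akt2.L, foxo3.L and pik3r1.L were measured and did not pass at NF36. The insulin receptor gene insr was not analysed here.

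Among insulin-like growth factors and their receptors, 6 genes were measured. None passed at NF32 in limma, where 1 had an unadjusted p under 0.05, and the smallest p belonged to igf2.L (0.42 ± 0.14, adjusted p = 0.185, or 0.0176 with the block) and the binding protein gene igfbp5.L (0.17 ± 0.10, adjusted p = 0.506). At NF36 igf1r.S, the receptor for insulin-like growth factors, and igf3.L, an insulin-like growth factor gene of amphibians and fish, passed higher. Over all probe sets of this stage, 3.59% passed higher. igf1r.S read 23.9, 25.1, 24.0 and 22.3 in the Ptf1a explants, against 15.6, 18.8, 17.9 and 17.1 in the GFP explants (0.26 ± 0.06, SE, adjusted p = 0.0365). igf3.L averaged 51.1 ± 3.37 in the Ptf1a explants and 39.7 ± 2.66 in the GFP explants (SD, n = 4 each, 0.27 ± 0.06, SE, adjusted p = 0.0453). With 1 array removed, igf1r.S kept its call in 0 and igf3.L in 1 of 8 refits.

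Several metabolic genes that insulin represses in mammalian liver rose at NF36. Of 23 measured insulin-responsive genes 8 passed, all higher, against 3.59% of all probe sets that passed higher, and the median change of the list was 0.21. The 8 were both copies of pck1, igfbp1 and pdk4 together with g6pc1.1.L and g6pc1.2.L, and the count was 6 to 8 in the refits with 1 array removed. igfbp1.S, a binding protein gene for insulin-like growth factors, read 398.0, 323.9, 253.0 and 354.4 in the Ptf1a explants, against 94.6, 79.2, 89.4 and 86.0 in the GFP explants (1.74 ± 0.13, SE, adjusted p = 0.0018). pdk4.S (1.05 ± 0.09) and pdk4.L (1.33 ± 0.12), which encode a kinase that restrains the use of pyruvate, and pck1.L (2.60 ± 0.24) passed in all 8 refits. Genes of fat and glycogen synthesis in the list, such as acly.L, scd.L and gys2.L, did not pass. Whether the rises had to do with the lower insulin RNA was not tested.

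At NF32 neither insulin gene passed without the block. Of 20 measured genes of that metabolic list, 2 passed higher and 1 lower, against 1.96% and 1.20% of all probe sets. They were pdk4.L (0.70 ± 0.12, adjusted p = 0.0299), pdk4.S (0.53 ± 0.10, adjusted p = 0.041) and the glycogen phosphorylase gene pygl.S (-0.73 ± 0.14, adjusted p = 0.0393). Of the 6 refits, pdk4.L kept its call in 1, pdk4.S in 0 and pygl.S in 1. With the block, 6 genes of the list were higher and 2 lower, where 1149 of all 22855 probe sets were higher and 958 lower.

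**Figure D4:**
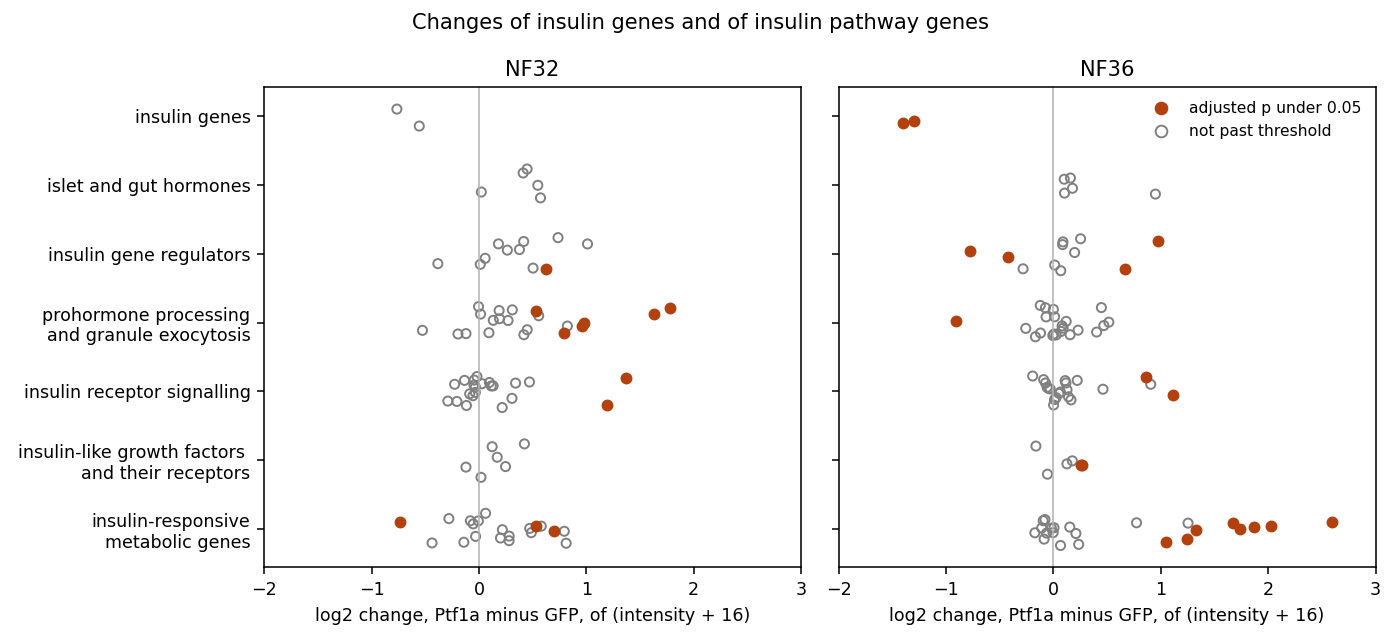
Log2 change (x axis), Ptf1a minus GFP, of each measured gene of the insulin pathway lists at NF32 and NF36, with filled points for genes that passed. At NF36 the insulin genes lie furthest to the left, at -1.40 and -1.29, while 8 insulin-responsive genes lie to the right, between 1.05 and 2.60.

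The Ptf1a arrays with the most ptf1a RNA were not those with the least insulin RNA. At NF36 ptf1a read 117.2, 143.1, 319.4 and 136.4 in the Ptf1a explants of replicates 1 to 4, against 25.5, 33.3, 31.5 and 29.8 in the GFP explants. Replicate 3, with the most ptf1a, had the highest ins.L of the Ptf1a arrays (21.1), and replicate 4 the lowest (15.4). For ins.S the highest was replicate 2 (39.4), followed by replicate 3 (36.1), and replicate 4 was again the lowest (22.1). Among the GFP arrays too, replicate 3 was the highest for both insulin genes (77.2 and 108.2). With 4 arrays no relation was tested.

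Markers of other cells moved in the same arrays as insulin at NF36, and their part in the result was not tested. Over all probe sets of this stage, 3.59% passed higher and 1.89% lower. Of 26 measured epidermis markers 13 passed higher and none lower, with summed levels of 11143 to 13733 in the Ptf1a explants and 5901 to 8782 in the GFP explants. Of 23 blood cell markers 6 passed lower and none higher (1092 to 4075 in the Ptf1a explants, 3327 to 7437 in the GFP explants), of 25 neuronal markers 4 passed higher (529 to 1007 and 376 to 463), and of 21 heart and muscle markers none passed (3074 to 4644 and 1235 to 2988). Of 23 liver markers 2 passed lower (18393 to 25312 in the Ptf1a explants, 24030 to 27923 in the GFP explants) and of 23 exocrine pancreas markers 1, cpa1.L, passed higher (266.6 to 429.9 and 262.0 to 336.3). The heart and muscle list had a median change of 0.67, with 8 markers higher and 1 lower at an unadjusted limma p under 0.05. For the liver list the median was -0.33, with 10 lower and 0 higher at that threshold. Of 16 endoderm identity markers gata4.S passed higher and hnf4a.S lower, and their summed levels overlapped, at 3612 to 4441 in the Ptf1a explants and 3885 to 4451 in the GFP explants. No measured marker of these lists was listed at 0 on all arrays, but many were dim. A mean below 16 was found for 14 exocrine, 13 neuronal, 7 blood cell and 4 epidermis markers. It was found for 1 marker each of liver, endoderm and heart and muscle. A list with many dim genes has little room to show a fall. With 1 array removed, the epidermis count was 7 without GFP replicate 3, 8 without GFP replicate 2 or Ptf1a replicate 4 and 9 to 12 otherwise. The blood cell count was 14 without Ptf1a replicate 3 and 1 or 2 without any other array. The neuronal count was 1 without GFP replicates 2, 3 or 4 or Ptf1a replicate 2, 2 without GFP replicate 1 and 4 otherwise. The liver count was 3 without Ptf1a replicate 3, 2 without Ptf1a replicate 1, 1 without GFP replicate 4 and 0 otherwise. With the block, 6 endoderm markers, 12 liver markers and 17 blood cell markers passed lower, and 22 epidermis, 9 neuronal and 4 exocrine markers passed higher. In that fit, 2554 of all 23614 probe sets passed lower and 2977 higher. Among the endoderm, liver and exocrine markers, fgb.L, a fibrinogen chain gene, had the most negative change (-1.38, adjusted p = 0.0793), and itih2.S the most negative of those that passed (-0.80).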

How the data were processed

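Total RNA of pooled explants was labelled with biotin and hybridised to Affymetrix 3' arrays. The deposited values are linear probe set intensities, 1 column per array. PLIER is named in the submitters' processing notes, without its role or version, and the scaling is not stated there. Array means were 140.19 to 140.36 over 22855 probe sets at NF32 and 100 over 23614 at NF36, so the stages were scaled apart. The design text names different chips for the stages, but the identifiers are of 1 chip. Between 13.0% and 27.5% of probe sets per array read below 16, and no detection calls were used. The number of arrays limits the precision.

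Values were taken as log2(intensity + 16) and fitted per stage with limma 3.58.1 (lmFit, eBayes) in R 4.3.3, 2-sided, with Benjamini-Hochberg adjustment over all probe sets. The stage difference was a contrast over shared probe sets, and the copy difference an exact permutation test over arrays. The limma fit was run on simulated data with independent noise, no shared batches and changes in the brighter probe sets only. That run does not show how the fit handles the pairing or dim genes. A list gene matched its symbol, or that symbol with a dot and a number, and was read from its brightest probe set. Named genes were both members, ptf1a, up to 4 passing genes of each of 6 pathway lists by p at each stage (or, where under 2 passed, the 2 of lowest p), and the 5 nearest profiles to each insulin gene. Genes added in lists of those that passed or were measured were named after their values were seen. 7 marker lists are given by counts and sums. Members and lists were chosen with earlier results of these data known. Gene symbols are those of the platform annotation.

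Pairing by replicate number comes from the shared batches of embryos. Departures from group means correlated across probe sets within pairs at r = 0.711, 0.297 and 0.416 (NF32) and r = 0.765, 0.670, 0.717 and 0.639 (NF36). Between 0.477% and 0.940% of values were identical between replicates. Each fit was repeated with an offset of 1 or 64, after quantile normalization or centring on the median, without the dimmest 40% of probe sets, with the replicate block, with robust and trended eBayes, with array weights and without each array. For the stage difference, 1 probe set per gene was tried too.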

Additional observations from a re-analysis of the deposited data

Results flagged for a closer look

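In the groups of 4 arrays of NF36, the gap between an extreme array and its nearest neighbour was set against the group's range for each named gene. 3 of 48 groups stood out, where chance gives about 1 in 20. The ptf1a probe set read 319.4 on Ptf1a replicate 3, with 143.1 the next highest (gap 0.872 of the range). socs3.S read 9.3 on GFP replicate 1, with 3.9 the next (0.964), and cldn18.L read 5.1 on Ptf1a replicate 3, with 0.6 the next (0.938). No group of ins.L or ins.S did.

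Of 32 named genes measured at both stages, 4 had a Ptf1a effect that differed between the stages in the limma contrast, given as NF36 minus NF32. They were nkx6-2.L (-1.51, adjusted p = 0.00548), snap25.L (-1.31, adjusted p = 0.0282), cpe.L (-0.953, adjusted p = 0.0297) and igfbp1.S (1.25, adjusted p = 0.0239). When each of the 14 arrays was removed in turn, nkx6-2.L kept its call in 14 refits, snap25.L in 5, cpe.L in 4 and igfbp1.S in 9. The insulin genes were not among them in this fit without the block. Most list genes were named for a small p at NF32 or NF36, and that choice favours a weaker effect at the other stage. The 4 genes are thus a description, and 0.777% of all shared probe sets passed this contrast.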

How the results depend on the processing

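At NF36, ins.L and ins.S passed lower in all 16 alternatives each, with changes of -1.99 to -0.74 and -1.67 to -0.77, the ends being the offsets of 1 and 64. At NF32 ins.L passed with the replicate block alone (-0.76, adjusted p = 0.0241) among 13 alternatives, and ins.S in none of 13. Neither could be fitted without dim probe sets at NF32, since both lay below the 40th percentile there. The stage difference of ins.L passed with the replicate block (-0.63, adjusted p = 0.0432) and without GFP replicate 1 of NF32, over a range of -0.85 to -0.49 when 1 array was removed. The difference of change between ins.L and ins.S at NF36 was -0.31 with an offset of 1 (exact permutation p = 0.0286) and reversed to 0.0272 with an offset of 64. The block changed no other call of the insulin genes.

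Counts over all probe sets moved more. At NF32, 449 probe sets passed higher and 274 lower, against 1149 and 958 with the replicate block and 190 and 145 without dim probe sets, and 299 passed higher with an offset of 64. Without 1 array the counts were 108 to 328 higher and 73 to 236 lower, over 1.5 times fewer in each direction without GFP replicates 1 or 2 or any Ptf1a replicate. At NF36, 848 passed higher and 446 lower, against 2977 and 2554 with the replicate block, 490 higher without dim probe sets and 684 lower with array weights. Without 1 array they were 311 to 863 and 97 to 481, over 1.5 times fewer in each direction without any GFP replicate or Ptf1a replicates 2 or 4. The stage difference passed for 173 probe sets, against 1217 with the replicate block, 372 with array weights, 115 of 1 probe set per gene, 108 with an offset of 64, 57 without dim probe sets and 45 to 353 without 1 array. The cause of these shifts was not tested, beyond the fewer probe sets or arrays that some alternatives hold. Of 645 alternative values of the other named genes, 505 kept their direction and call, 124 lost and 16 gained a call, and none turned its sign.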

Other observations

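Genes next to the insulin genes were looked up by order in the RefSeq annotation of Xenopus laevis v10.1, a choice made after the insulin values were seen. igf2 follows ins on both subgenomes and th lies on the other side, as in mammals. th, which encodes tyrosine hydroxylase, was not analysed here. igf2.L averaged 18.1 ± 8.24 in the Ptf1a explants of NF36 and 15.1 ± 7.09 in the GFP explants (SD, n = 4 each, log2 change 0.13 ± 0.23, limma adjusted p = 0.878). igf2.S averaged 42.5 ± 8.06 in the Ptf1a explants and 50.0 ± 13.0 in the GFP explants (-0.16 ± 0.16, limma adjusted p = 0.692). cd81.S, a tetraspanin gene beyond th.S, averaged 333.6 ± 32.4 in the Ptf1a explants and 311.2 ± 16.5 in the GFP explants (0.09 ± 0.08, limma adjusted p = 0.632). None of these measured neighbours passed at either stage without the block, and with it igf2.L passed higher at NF32 (adjusted p = 0.0176).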
